A study of Mus musculus with 6 samples.

Results

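The 10 genes described here, *Clcf1*, *Tgm1*, *Ptx3*, *Sphk1*, *Cd109*, *Ptgs2*, *Emp1*, *Slc10a6*, *Tm4sf1* and *B3gnt5*, belong to the A2 panel of reactive astrocyte genes. They were chosen by name, and all 10 were found among the 24421 genes of the expression tables. RNA was sequenced from hippocampal astrocytes of C57BL/6 mice, all of which were homozygous for the *Siglech* dtr allele. In this allele the diphtheria toxin (DT) receptor is expressed from the *Siglech* locus, so that DT ablates microglia. Mice received PBS or DT at 50 µg/kg by intraperitoneal injection 2 days before sampling. There were 3 PBS and 3 DT libraries from 3 independent experiments, and each library was made from the pooled hippocampi of 2 mice. Cells carrying CD11b were removed on magnetic beads before astrocytes were collected with beads against astrocyte cell surface antigen-2. The controls carried the same allele, and mice without it are not in these libraries.

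Astrocytes respond to injury, infection and loss of neighboring cells by changing shape and gene expression, a state called reactive. Panels of genes have long been used to describe this state. The pan-reactive panel is shared between many insults, the A1 panel was defined in neuroinflammation and the A2 panel after ischemia. The A2 panel is a mixed set of a cytokine, a soluble pattern recognition protein, enzymes, membrane proteins and a transporter. The comparison of PBS and DT asked how each of these genes stood in astrocytes when microglia had been ablated. In pooled cells such as these, fewer cells of a type and less RNA per cell cannot be told apart.

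Libraries held 21704891 to 32933975 reads assigned to genes, as recovered from the CPM (counts scaled to library size). On this basis 1 read was worth 0.0301 to 0.0460 CPM. The 15 astrocyte markers were abundant in every library, with a sum of 65700 to 74700 CPM. *Slc1a2*, the main glutamate transporter of astrocytes, led them at 36900 ± 1130 CPM (SD, n = 3) after PBS. *Siglech* had 0 reads in each DT library and was at 1.68 ± 0.625 CPM (SD, n = 3) after PBS, at least 44.6-fold higher when 3 reads over the DT libraries are taken as the limit of a count of 0. All values below are CPM as scaled by the authors unless TPM, which also accounts for gene length, is named.

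Of the 10 genes, *Tgm1* alone passed the test and was higher after DT. The test was limma on log2(CPM + 0.1), two-sided, with Benjamini-Hochberg adjustment over the 15137 genes whose mean CPM reached 0.5, at a threshold of 0.05. Among all genes tested, 0.555% were called higher and 0.159% lower. *Slc10a6* was under the filter, so 9 of the 10 were tested, and 1 was called higher and 0 lower by limma. At an unadjusted p under 0.05, 5 of the 9 were higher, *Tgm1*, *Ptx3*, *Emp1*, *B3gnt5* and *Cd109*, against 5.91% of all genes tested. *Sphk1* was the single one lower at that level, against 4.51% of all genes. *Tgm1* passed the filter through its level in the DT libraries and *Sphk1* through its level in the PBS libraries, so these counts do not stand for genes detected in both groups.

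The groups were also set apart by their values alone. The lowest DT library lay above the highest PBS library for 6 of the 9 tested genes, against 8.75% of all genes tested, and for *Slc10a6*. The highest DT library lay below the lowest PBS library for *Sphk1*, against 7.57% of all genes. For *Ptgs2* and *Tm4sf1* the groups overlapped. The median log2 fold change of the 9 genes was 0.71, and that of all genes tested was -0.00524. The count depended on the tool. DESeq2 on the recovered reads called 4 of the genes higher, *Tgm1*, *Ptx3*, *Emp1* and *Cd109*, against 1.50% of the 15127 genes to which it gave an adjusted p, and edgeR's quasi-likelihood test called *Tgm1* only, against 0.575% of all genes. Of the 9, DESeq2 called 0 lower (0.648% of all genes) and edgeR 0 lower (0.159%).

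**Figure D1:**
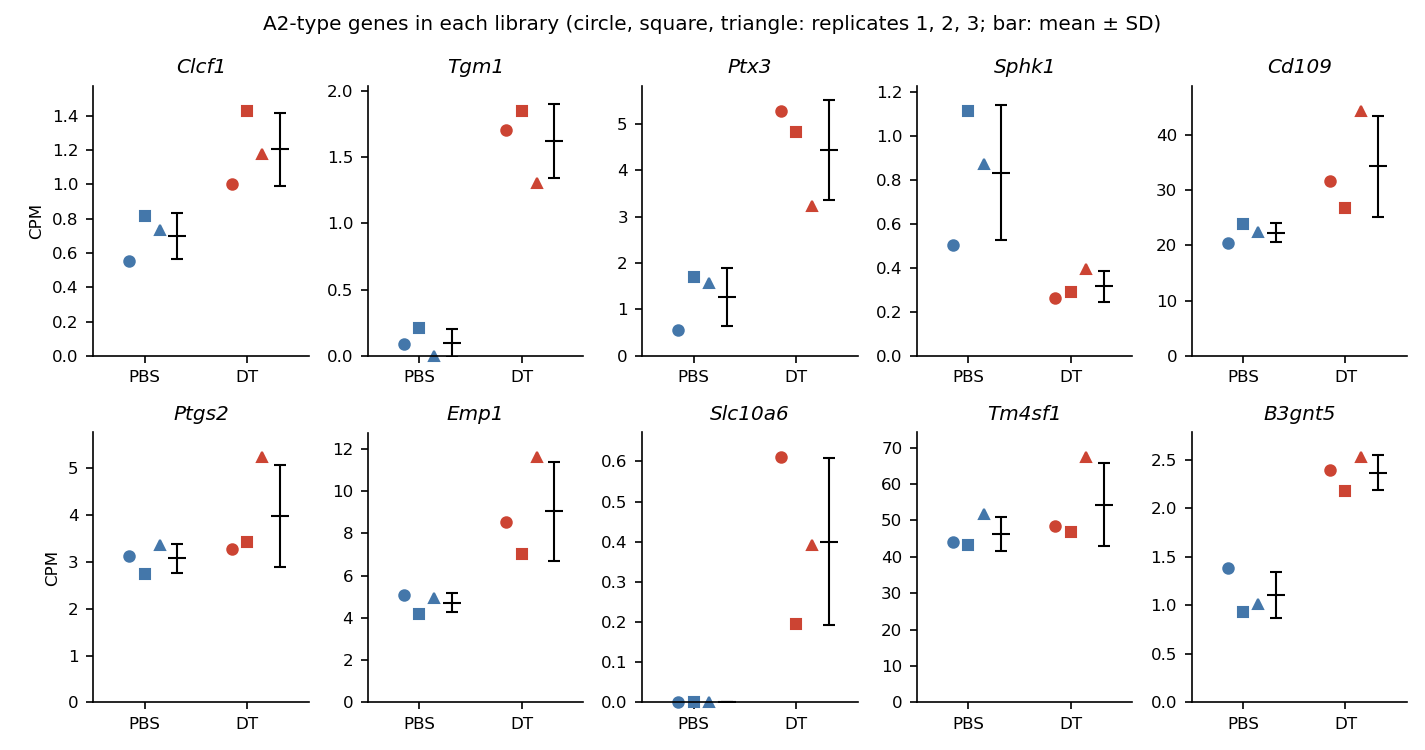
CPM (vertical axes, each from 0 on its own scale) of the 10 genes in the 3 PBS libraries (blue) and the 3 DT libraries (red), with the mean ± SD in black. The groups are apart for *Tgm1*, *Ptx3*, *Emp1*, *B3gnt5*, *Cd109*, *Clcf1* and *Slc10a6*, which were higher in each DT library, and for *Sphk1*, which was lower in each DT library.

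The order of the levels was taken from TPM. After PBS, *Tm4sf1* stood highest at 71.2 ± 7.30 TPM (SD, n = 3), followed by *Cd109* at 11.1 ± 1.04 TPM (SD, n = 3) and *Emp1* at 4.94 ± 0.471 TPM (SD, n = 3). These 3 did not overlap with their neighbors in the order. *Ptgs2* at 2.16 TPM, *Ptx3* at 1.91 TPM, *Sphk1* at 1.3 TPM, *Clcf1* at 1.04 TPM and *B3gnt5* at 0.665 TPM followed, and neighbors among these 5 overlapped over the 3 libraries. *Tgm1* at 0.0913 TPM and *Slc10a6* at 0 TPM came last. *Tm4sf1* stood at percentile 82.2 of the genes tested and *Cd109* at percentile 32.9, and the others were lower. After DT the first 3 places were the same, though *Emp1* then overlapped with *Ptx3*, and *Ptx3* was at rank 4 at 6.80 ± 1.59 TPM (SD, n = 3) and *Tgm1* at rank 7 at 1.65 ± 0.295 TPM (SD, n = 3). *Sphk1* came last at 0.474 ± 0.102 TPM (SD, n = 3), and overlapped with *Slc10a6* at 0.516 ± 0.273 TPM (SD, n = 3).

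The sequences before a RefSeq start of *Tgm1*, *Emp1* and *Ptx3* are shown. These 3 genes were chosen because they had the smallest limma p-values among those of the 10 that passed the filter. *Slc10a6* was under the filter and is not shown. With no filter on low values its adjusted p from limma was 0.0754, below those of *Ptx3* (0.183) and *Emp1* (0.199) in that fit. The sequences shown are the stretches upstream of the first RefSeq start of each gene on GRCm38.p6, read 5′ to 3′ on the strand of the gene. Bases that GENCODE M21 counts as exon are left out. The *Tgm1* and *Emp1* stretches lie inside the spans that GENCODE M21 gives these genes, which begin further upstream, at 55713926 and 135362545. Their letters are therefore within the annotated gene and not upstream of all its starts. Capitals mark the letters TTCNNNGAA, which STAT factors recognize, and TGANTCA, which AP-1 recognizes, searched on both strands.
*Tgm1*, minus strand, chr14:55713495-55713742: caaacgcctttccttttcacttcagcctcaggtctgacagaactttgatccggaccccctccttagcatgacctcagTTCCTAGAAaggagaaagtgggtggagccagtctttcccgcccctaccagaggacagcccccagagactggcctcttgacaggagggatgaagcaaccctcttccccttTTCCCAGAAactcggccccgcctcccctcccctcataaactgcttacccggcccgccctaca
*Emp1*, plus strand, chr6:135362708-135362903: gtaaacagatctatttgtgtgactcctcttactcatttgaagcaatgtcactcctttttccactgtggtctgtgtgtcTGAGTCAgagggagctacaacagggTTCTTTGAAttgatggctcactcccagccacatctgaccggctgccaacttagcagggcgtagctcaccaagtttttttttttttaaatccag
*Ptx3*, plus strand, chr3:66219637-66219886: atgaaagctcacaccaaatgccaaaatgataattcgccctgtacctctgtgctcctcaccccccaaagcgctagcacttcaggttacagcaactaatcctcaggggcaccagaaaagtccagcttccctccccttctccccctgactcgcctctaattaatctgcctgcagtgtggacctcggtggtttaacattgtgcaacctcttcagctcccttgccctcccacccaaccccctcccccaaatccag

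The *Tgm1* stretch holds 2 matches to the STAT letters, which begin at -173 and -64, where -1 is the base before the RefSeq start. The *Emp1* stretch holds an AP-1 match that begins at -145 and a STAT match that begins at -120. A further AP-1 match at -25 and a STAT match at -22 overlap with each other in bases of *Emp1* that are counted as exon. The *Ptx3* stretch holds neither. The *Slc10a6* window of 250 bases, which is not shown, also holds neither. Windows of 250 bases before a start were found in RefSeq for 8 of the 10 genes, 14 windows in all. STAT letters occurred in 4 of the 14, against 7.02% of 32851 windows of all genes, and 0.317% of all windows held at least 2 matches. AP-1 letters occurred in 3 of the 14 (6.75% of all windows). The NF-kappa B motif occurred in 2 of the 14, 1 of *Tm4sf1* and 1 of *Sphk1* (7.25% of all windows). Among these windows, 2 belong to *Sphk1* and overlap, so they share both a STAT and an AP-1 match, and the AP-1 matches are those of *Emp1* and *Sphk1*. These matches are descriptions of letters and not of binding.

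*Clcf1* encodes cardiotrophin-like cytokine factor 1, a secreted ligand that signals through the CNTF receptor and gp130. The gene spans 4214238 to 4223490 on chromosome 19 of mm10 (plus strand), and shares exon bases with AC109138.7 on the same strand, so that its reads could be split between both. *Clcf1* was at 0.552, 0.814 and 0.735 CPM in the PBS libraries and at 1.0, 1.43 and 1.18 CPM in the DT libraries. All DT values were above all PBS values, on 12 to 44 reads per library. On the log2 scale the difference was 0.71 (95% interval -0.03 to 1.44, limma adjusted p = 0.499) and did not pass the test.

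The receptor and signaling genes of *Clcf1* were measured on far more reads. Of 12 tested genes among its partners, related ligands and signaling kinases, 1 was called higher and 0 lower by limma (4 and 1 at an unadjusted p under 0.05, 1 and 0 by edgeR, 2 and 1 by DESeq2), and their median log2 fold change was 0.08. *Stat3*, the transcription factor downstream of gp130, rose from 137 ± 16.6 to 271 ± 30.2 CPM (SD, n = 3). The change was 0.98 on the log2 scale (SE 0.11, limma adjusted p = 0.00538). The receptor subunits *Il6st* (gp130) at 252 CPM and *Lifr* at 246 CPM after PBS had log2 fold changes of 0.06 and -0.16, and the kinase *Jak1* at 212 CPM had one of 0.03, none past the threshold. *Socs3*, a feedback inhibitor of this pathway that was picked out after its values were seen, was just outside the threshold at a log2 fold change of 0.82 (SE 0.15, adjusted p = 0.0512 by limma). DESeq2 called *Socs3* higher (adjusted p = 7.33e-05). *Cntfr*, the ligand-binding receptor subunit for CNTF and CLCF1, likewise picked out after its values were seen, was at 206 ± 27.9 CPM after PBS and 140 ± 37.0 CPM after DT (SD, n = 3), with no overlap between the groups. Its log2 fold change of -0.58 (SE 0.17) did not pass by limma (adjusted p = 0.277), while DESeq2 called it lower (adjusted p = 0.0291). The ligand *Il6* had 0 reads in every library.

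*Ptx3* encodes pentraxin 3, a soluble pattern recognition protein that binds complement components and microbial surfaces. On chromosome 3 it spans 66219910 to 66225805, plus strand. *Ptx3* was at 0.552, 1.69 and 1.56 CPM after PBS and at 5.28, 4.81 and 3.23 CPM after DT. The lowest DT library stood above the highest PBS library, and PBS replicate 1 was lower than the other PBS libraries. The mean was 1.27 ± 0.623 CPM after PBS and 4.44 ± 1.08 CPM after DT (SD, n = 3), a ratio of 3.5. The log2 fold change of 1.83 (95% interval 0.91 to 2.76) had an adjusted p of 0.125 from limma. DESeq2 called it with an adjusted p of 0.000989, the smallest in a range of 0.000989 to 0.405 over 16 alternatives.

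Among 12 tested pentraxins and partners of PTX3, 1 was called higher and 0 lower by limma (1 and 2 at an unadjusted p under 0.05). By edgeR the counts were 1 and 0 and by DESeq2 1 and 1, and the median log2 fold change was -0.11. *Fcgr2b*, the inhibitory Fc gamma receptor that macrophages also express, rose from 1.12 ± 0.534 to 5.80 ± 1.69 CPM (SD, n = 3). The difference was 2.36 on the log2 scale (SE 0.40, limma adjusted p = 0.0413). *Fcgr3*, another Fc gamma receptor, picked out after its values were seen, went the other way. It was at 5.24 ± 1.44 CPM after PBS and 2.5 ± 0.673 CPM after DT (SD, n = 3), with no overlap. Its log2 fold change of -1.03 (SE 0.26) did not pass by limma (adjusted p = 0.194), and DESeq2 called it lower (adjusted p = 0.0304). *Sel1l* at 222 CPM after PBS had a log2 fold change of 0.07 and the neuronal pentraxin receptor *Nptxr* at 74.0 CPM one of -0.55, and neither passed the test. The short pentraxins *Crp* and *Apcs* had 0 reads in every library.

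*Tgm1* encodes transglutaminase 1, an enzyme that crosslinks proteins, best known from the cornified envelope of the epidermis. The locus on chromosome 14 spans 55700009 to 55713926 (minus strand), and Gm49067 on the opposite strand shares exon bases with it, though reads were mapped by strand. *Tgm1* was read 2, 7 and 0 times in the PBS libraries and 39, 57 and 30 times in the DT libraries. In CPM these were 0.0920, 0.211 and 0 after PBS and 1.70, 1.85 and 1.31 after DT, so the transcript went from the limit of detection to a low but countable level. The log2 fold change was 3.23 (SE 0.51, 95% interval 2.07 to 4.39, adjusted p = 0.0316 by limma). The pooled CPM of the DT libraries was 14.0 times that of the PBS libraries, with an interval of 7.15 to 31.3 that covers counting error only.

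The call of *Tgm1* was lost in most fits that left out 1 library. In these fits, which have fewer libraries, the count of all genes called higher also fell, from 84 to between 39 and 72. Without PBS replicate 1 the adjusted p was 0.0810, without PBS replicate 3 it was 0.0508, and without DT replicates 1, 2 and 3 it was 0.144, 0.200 and 0.106. Without PBS replicate 2 the call held. Over these 6 fits the log2 fold change was 2.80 to 3.62, while pseudocounts of 0.5 and 1 lowered it to 1.83 and 1.25 and kept the call. The adjusted p was 2.28e-05 to 0.200 over all 15 alternatives, with 9 past the threshold.

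Of 16 transglutaminases and cornified envelope partners, 6 were tested, 1 was called, and the median log2 fold change was -0.07. *F13a1*, the A subunit of coagulation factor XIII and also a marker of border-associated macrophages, rose from 5.22 ± 0.579 to 13.7 ± 1.67 CPM (SD, n = 3). This is 1.38 on the log2 scale (SE 0.15, limma adjusted p = 0.00536). *Tgm2*, the tissue transglutaminase, was at 42.7 CPM in the PBS and 43.4 CPM in the DT group, a log2 difference of 0.04 (adjusted p = 0.969 by limma). The envelope protein *Ppl* was at 4.41 CPM after PBS and differed by 0.80 on the log2 scale (adjusted p = 0.290 by limma). *Ivl*, *Sprr1a*, *Sprr1b* and *Tgm5* had 0 reads in every library. *Ivl* encodes involucrin, a substrate of transglutaminase 1 in keratinocytes.

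*Sphk1* encodes sphingosine kinase 1, which makes sphingosine 1-phosphate, and was the single gene of the 10 with lower values after DT. On chromosome 11 it spans 116530925 to 116536674, plus strand, and Gm29292 on the opposite strand shares exon bases with it. *Sphk1* was at 0.506, 1.12 and 0.873 CPM after PBS and at 0.262, 0.292 and 0.393 CPM after DT. The groups did not overlap, on 11 to 37 reads in PBS libraries and 6 to 9 in DT libraries. DT libraries differed from PBS libraries by -1.12 on the log2 scale (95% interval -2.09 to -0.15, limma adjusted p = 0.419), which did not pass the test. The pooled CPM of the DT libraries was 0.358 times that of the PBS libraries, with a counting interval of 0.215 to 0.579.

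The other genes of the sphingosine 1-phosphate pathway had fold changes of both signs. Of 18 genes tested, 12 were higher and 6 lower, and limma called 1 higher and 0 lower. At an unadjusted p under 0.05, 4 were higher and 1 lower, edgeR called 1 higher and 0 lower, and DESeq2 called 2 higher and 1 lower. The median log2 fold change was 0.21. The called gene was *Ppap2a*, a lipid phosphate phosphatase now named *Plpp1*, which rose from 22.9 ± 0.825 to 31.9 ± 0.307 CPM (SD, n = 3). The change was 0.48 on the log2 scale (SE 0.08, limma adjusted p = 0.0365). *Ppap2b* (*Plpp3*) at 4130 CPM, the receptor *S1pr1* at 1950 CPM and the ceramidase *Asah1* at 167 CPM after PBS had the most CPM. Their log2 fold changes were -0.07, -0.14 and -0.05, none past the threshold. *Sgpp2*, a sphingosine 1-phosphate phosphatase picked out after its values were seen, was at 10.2 ± 3.03 CPM after PBS and 5.82 ± 0.646 CPM after DT (SD, n = 3), with no overlap between the groups. By limma its log2 fold change of -0.77 (SE 0.21) did not pass (adjusted p = 0.234), and DESeq2 called it lower (adjusted p = 0.0378). The receptor *S1pr3*, likewise picked out and also in the pan-reactive panel, went the other way. It was at 31.5 ± 5.95 CPM after PBS and 46 ± 4.07 CPM after DT (SD, n = 3), with no overlap. Its log2 fold change of 0.56 (SE 0.14) did not pass by limma (adjusted p = 0.181), and DESeq2 called it higher (adjusted p = 0.0123).

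*Ptgs2* encodes cyclooxygenase-2, the inducible enzyme of prostaglandin synthesis. The locus on chromosome 1 spans 150100031 to 150108227 (plus strand). *Ptgs2* was at 3.13, 2.74 and 3.35 CPM after PBS and at 3.27, 3.41 and 5.23 CPM after DT. DT replicate 1 stood within the PBS values, and DT replicate 3 was higher than all others. On the log2 scale the difference was 0.33 (95% interval -0.19 to 0.86, limma adjusted p = 0.667), so that a rise of up to 0.86 on the log2 scale was inside the interval. Of 17 tested prostanoid genes, 0 were called by limma in either direction, and the median log2 fold change was -0.01. At an unadjusted p under 0.05, 2 were higher and 0 lower, edgeR called 0 and DESeq2 called 1 higher. The synthase *Ptges3* at 138 CPM, the transporter *Abcc4* at 70.2 CPM and prostaglandin D synthase *Ptgds* at 61.8 CPM after PBS had log2 fold changes of 0.13, -0.07 and 0.04. The gene that DESeq2 called was *Ptges*, the inducible prostaglandin E synthase, picked out after its values were seen. It was at 11.9 ± 1.69 CPM after PBS and 18.4 ± 1.74 CPM after DT (SD, n = 3), with no overlap between the groups. Its log2 fold change of 0.63 (SE 0.13) was not past the limma threshold (adjusted p = 0.113; 0.0059 by DESeq2).

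*B3gnt5* encodes the glycosyltransferase that starts the lacto-series of glycosphingolipids. On chromosome 16 it spans 19760208 to 19772753, plus strand. *B3gnt5* was at 1.38, 0.935 and 1.01 CPM after PBS and at 2.40, 2.18 and 2.53 CPM after DT. The DT libraries were close to each other and all above the PBS libraries, on 22 to 67 reads per library. DT libraries differed from PBS libraries by 1.05 on the log2 scale (95% interval 0.45 to 1.64, limma adjusted p = 0.183). Of 15 tested genes of its family and of lacto-series synthesis, limma and edgeR called 0, DESeq2 called 1 higher, and 2 were higher at an unadjusted p under 0.05. Their median log2 fold change was 0.09. The galactosyltransferases *B3galt2* at 85.6 CPM and *B4galt4* at 52.1 CPM after PBS had log2 fold changes of 0.36 and -0.10, and *B4gat1* at 46.4 CPM had one of -0.03. *B3galt2* was the gene that DESeq2 called (adjusted p = 0.0115).

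*Cd109* encodes a GPI-anchored relative of alpha-2-macroglobulin that acts as a TGF-beta co-receptor. The locus on chromosome 9 spans 78615546 to 78716253 (plus strand). *Cd109* was at 20.5, 23.8 and 22.5 CPM after PBS and at 31.6, 26.8 and 44.4 CPM after DT. The PBS libraries were close together, and the DT libraries were all higher and more spread. On the log2 scale the difference was 0.59 (95% interval 0.20 to 0.98, limma adjusted p = 0.269). DESeq2 called it with an adjusted p of 0.0263, in a range of 0.0263 to 0.510 over 16 alternatives.

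The relatives of *Cd109* in the alpha-2-macroglobulin family held 3 called genes, all higher. *A2m*, the protease inhibitor alpha-2-macroglobulin, rose from 18.5 ± 3.42 to 83.4 ± 7.67 CPM (SD, n = 3). The difference was 2.18 on the log2 scale (SE 0.13, limma adjusted p = 0.00024). *C3*, the central complement component, rose from 13.7 ± 0.755 to 35.2 ± 5.79 CPM (SD, n = 3). This is 1.34 on the log2 scale (SE 0.13, limma adjusted p = 0.00214). *C4b* rose by 1.72 on the log2 scale (SE 0.09, adjusted p = 8.2e-05 by limma), and its paralog *C4a* could share its reads. The TGF-beta ligands, receptors and Smads in the same list were not called (3 of its genes were lower at an unadjusted p under 0.05), and the median over all 16 tested genes was 0.01.

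*Emp1* encodes epithelial membrane protein 1, a tetraspan protein of the PMP22 family. Its exons span 135362545 to 135383173 of chromosome 6, plus strand. *Emp1* was at 5.07, 4.19 and 4.92 CPM after PBS and at 8.51, 7.02 and 11.6 CPM after DT. All DT values were above all PBS values, and the means were 4.72 ± 0.468 and 9.04 ± 2.34 CPM (SD, n = 3). DT libraries differed from PBS libraries by 0.90 on the log2 scale (95% interval 0.43 to 1.36, limma adjusted p = 0.132). DESeq2 called it with an adjusted p of 0.00641, in a range of 0.00641 to 0.303 over 16 alternatives. Its relatives had other values, with log2 fold changes of -0.10 for *Emp2* at 104 CPM after PBS, -0.04 for *Pmp22* at 44.5 CPM and -0.07 for *Emp3* at 1.32 CPM, none past the threshold.

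*Tm4sf1* encodes a four-transmembrane protein of the L6 family, known for its high level in endothelial cells. The locus on chromosome 3 spans 57285611 to 57301988 (minus strand). *Tm4sf1* was at 44.0, 43.2 and 51.7 CPM after PBS and at 48.4, 46.9 and 67.4 CPM after DT. DT replicates 1 and 2 stood within the PBS values, and DT replicate 3 was above all others. On the log2 scale the difference was 0.21 (95% interval -0.11 to 0.54, limma adjusted p = 0.653). The ratio of pooled CPM was 1.17, and its counting interval of 1.12 to 1.22 was narrow because 955 to 1545 reads were counted per library, but the values of the 2 groups overlapped. In the same family *Tm4sf20* was at 0.738 CPM after PBS, with a log2 fold change of -0.35, and *Tm4sf4*, *Tm4sf5* and *Tm4sf19* had 0 reads in every library.

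*Slc10a6* encodes a sodium-dependent transporter of sulfated steroid hormones. Its exons span 103605711 to 103629403 of chromosome 5, minus strand. *Slc10a6* had 0 reads in each PBS library and 14, 6 and 9 reads in the DT libraries, which are 0.611, 0.195 and 0.393 CPM. The pooled CPM of the DT libraries was at least 9.67-fold higher, with 3 reads over the PBS libraries as the limit that a count of 0 allows. The exact permutation test on CPM gave a two-sided p of 0.1, the smallest that 3 against 3 libraries allow, so that test could not reach the threshold. With no filter on low values the limma fit includes *Slc10a6*, and its adjusted p was then 0.0754. In a list of the SLC10 family and handlers of steroid sulfates, 6 genes were tested and all had negative log2 fold changes, with a median of -0.30. The thyroid hormone and organic anion transporter *Slco1c1* fell from 310 ± 21.6 to 232 ± 6.79 CPM (SD, n = 3). The change was -0.42 on the log2 scale (SE 0.07, limma adjusted p = 0.0316). *Slco1a4* at 179 CPM and the sulfotransferase *Sult1a1* at 29.7 CPM after PBS had log2 fold changes of -0.37 and -0.28, neither past the threshold.

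**Figure D2:**
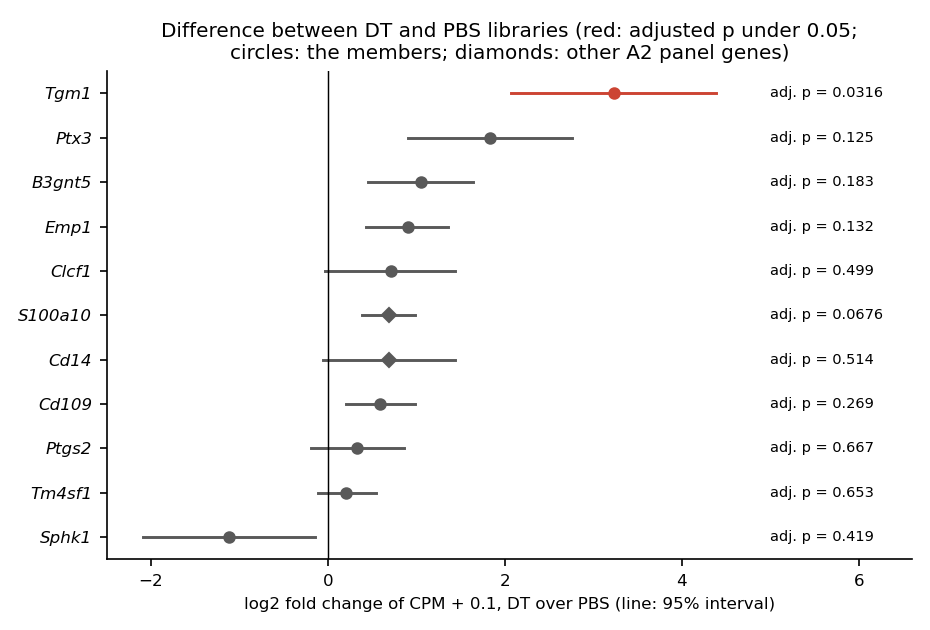
Log2 fold change of CPM + 0.1 between DT and PBS libraries (horizontal axis) with its 95% interval from limma, for the 9 tested genes (circles) and for *S100a10* and *Cd14* of the same panel (diamonds). *Tgm1* (red) is past the adjusted threshold, and the intervals of *Clcf1*, *Ptgs2*, *Tm4sf1* and *Cd14* include 0.

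The other 2 genes of the A2 panel, *S100a10* and *Cd14*, lay between these values. *S100a10*, which encodes an annexin partner, was at 31.8, 39.8 and 39.3 CPM after PBS and at 70.8, 55.4 and 53.2 CPM after DT. Its log2 fold change was 0.69 (SE 0.13, adjusted p = 0.0676 by limma), and DESeq2 called it with an adjusted p of 0.000106, in a range of 0.000106 to 0.240 over 16 alternatives. *Cd14*, a co-receptor for lipopolysaccharide that myeloid cells also express, was at 0.921, 1.81 and 0.965 CPM after PBS and at 1.62, 1.95 and 2.40 CPM after DT. Its groups overlapped, and its log2 fold change of 0.69 had an adjusted p of 0.514 from limma.

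The 4 genes of the 10 with the highest levels after PBS shared a pattern among the DT libraries. *Tm4sf1*, *Cd109*, *Emp1* and *Ptgs2* were each highest in DT replicate 3. On the log2 scale this library was above the mean of the other DT libraries by 0.50, 0.61, 0.58 and 0.63, respectively. *B3gnt5* and *Sphk1* were also highest there among the DT libraries, by 0.14 and 0.39, so that 6 of the 10 genes were. The share of all genes highest in this library was not counted, so this count does not set the 10 genes apart. *Ptx3* and *Tgm1* were lowest there, by -0.63 and -0.41. Without DT replicate 3, the log2 fold changes of *Cd109*, *Emp1*, *Ptgs2* and *Tm4sf1* were 0.39, 0.70, 0.12 and 0.05. In this library the ependymal markers summed to 671 CPM, against 407 and 415 CPM in the other DT libraries, and the choroid plexus markers to 581 CPM, against 1540 and 1030 CPM. The mural markers summed to 1470 CPM, against 1150 and 1220 CPM, and the endothelial markers to 932 CPM, against 754 and 778 CPM. Neuron markers summed to 1690 CPM, against 1140 and 1460 CPM, and meningeal fibroblast markers to 180 CPM, against 140 and 152 CPM. The monocyte and neutrophil sum was also highest there. Astrocyte, oligodendrocyte and border-associated macrophage sums were lowest there, and the microglia sum lay between the other DT libraries. The part of any of these cells in the pattern was not tested.

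By its median log2 fold change, the A2 set stood between the pan-reactive and the A1 genes. Of the 13 pan-reactive genes, 12 were higher and 6 were called higher by limma and by edgeR (8 by DESeq2, 10 at an unadjusted p under 0.05). Their median log2 fold change was 1.75. The called genes were the protease inhibitor *Serpina3n* with a log2 fold change of 3.45, *Aspg* with 2.27, the intermediate filament gene *Gfap* with 1.93, the hyaluronan receptor *Cd44* with 1.75, *Osmr* with 1.62 and the metalloprotease inhibitor *Timp1*, which had 0 reads in each PBS library and was at 3.13 ± 0.352 CPM (SD, n = 3) after DT, at least 79.4-fold higher. *Osmr* encodes the receptor subunit for oncostatin M, which like CLCF1 signals through gp130. Of the 12 A1 genes, *Ggta1*, a galactosyltransferase, was called higher by limma with a log2 fold change of 1.16 (1 gene by edgeR, 2 by DESeq2 and 4 at an unadjusted p under 0.05), none was called lower by limma, edgeR or DESeq2 or at an unadjusted p under 0.05, and the median was 0.23. *H2-D1* and *Gbp2*, the most counted A1 genes at 70.5 and 25.6 CPM after PBS, had log2 fold changes of -0.12 and 0.58. Over the 10 lists of partners and relatives together, 106 genes were tested, of which 7 were called higher and 1 lower, and whose median log2 fold change was 0.0057. The lists were not tested against each other.

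**Figure D3:**
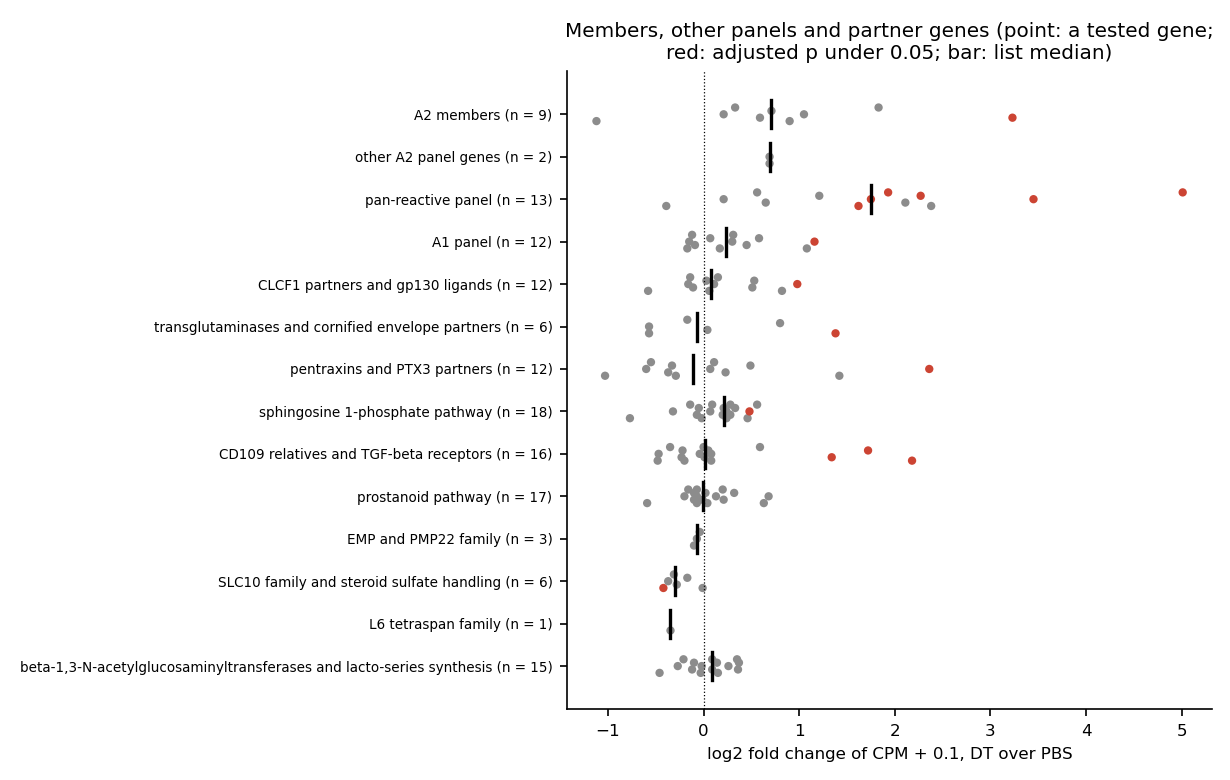
Log2 fold change of CPM + 0.1 between DT and PBS libraries (horizontal axis) for each tested gene of the A2 members, the other panels and the lists of partners and relatives, with list medians as bars and genes past the adjusted threshold in red. The members have a median of 0.71, the pan-reactive panel of 1.75 and the A1 panel of 0.23, and the partner lists lie between -0.35 and 0.21.

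Markers of several other cell types differed between the groups. All 12 microglia markers had lower values after DT and 8 of them were called, with sums of 254 to 290 CPM after PBS and 142 to 163 CPM after DT. *Sall1*, their most counted gene at 79.2 CPM after PBS, had a log2 fold change of -0.04. Of the 11 border-associated macrophage markers, 9 were tested and all 9 were higher, with *Mrc1*, *Lyve1* and *F13a1* called. Their sum was 49.1 to 70.1 CPM after PBS and 108 to 126 CPM after DT, and *Mrc1*, the mannose receptor, rose from 15 ± 3.18 to 41.5 ± 2.22 CPM (SD, n = 3). *Stab1*, the most counted after PBS at 23.1 CPM, had a log2 fold change of 0.47. The sums of the choroid plexus markers, led by *Ttr*, were 65.7 to 892 CPM after PBS and 581 to 1540 CPM after DT. The ependymal markers, led by *Foxj1*, summed to 321 to 376 CPM after PBS and 407 to 671 CPM after DT, and limma and edgeR called 0 of either list, while DESeq2 called 1 of each higher. At an unadjusted p under 0.05, 8 choroid plexus and 5 ependymal markers were higher. The part of these cells in the values of the 10 genes was not tested.

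All 14 endothelial markers, led by *Flt1*, had lower values after DT (0 called by limma and edgeR, 2 by DESeq2, 7 at an unadjusted p under 0.05), with sums of 922 to 1420 CPM after PBS and 754 to 932 CPM after DT. Of the 13 monocyte and neutrophil markers, 9 had 0 reads in every library, *S100a8*, *S100a9* and *Ltf* among them, and the sums were 2.62 to 5.05 CPM after PBS and 1.53 to 1.96 CPM after DT. *Csf3r* was their most counted gene. The astrocyte, mural, meningeal fibroblast and neuron lists, led by *Slc1a2*, *Vtn*, *Igf2* and *Map2*, and the oligodendrocyte list had 0 called genes by limma and edgeR and 1 by DESeq2, an astrocyte gene, and medians of 0.03, 0.02, 0.01, 0.02 and -0.25, and the sums of their groups overlapped.

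**Figure D4:**
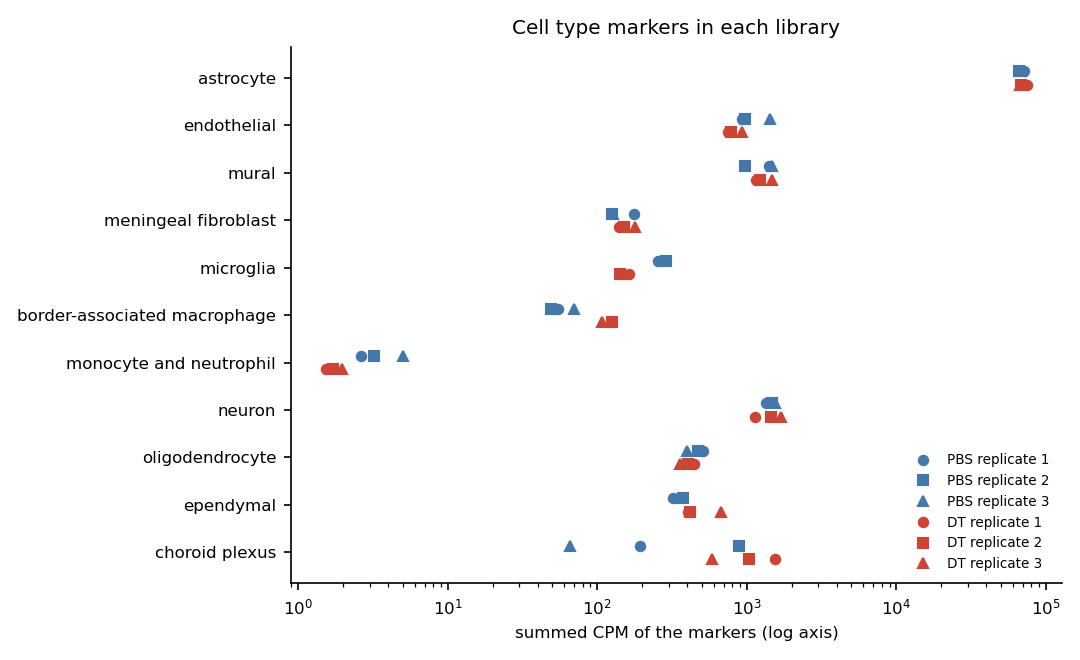
Summed CPM of the markers of 11 cell types (horizontal log axis) in each PBS library (blue) and DT library (red). The groups are apart for microglia and for monocyte and neutrophil markers, which were lower after DT, and for border-associated macrophage and ependymal markers, which were higher, while the choroid plexus markers span 65.7 to 1540 CPM.

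The genes whose pattern over the 6 libraries was most like that of the members were sought among the other tested genes. The pattern was the mean of the standardized log2(CPM + 0.1) of the 9 tested members. The nearest were *Gbp2b*, *Fhod3*, *Gm11992*, *Eno4* and *1700003M02Rik*, with root mean square differences of 0.142 to 0.164 in units of SD. None of them passed the test, and their log2 fold changes were 0.45 to 0.64. They are the closest of all tested genes over only 6 libraries, and small differences can arise from such a choice alone. Among the members themselves, *Cd109* at 0.251 and *Emp1* at 0.302 were nearest to the mean pattern, and *Sphk1* at 1.65 was farthest. The members set this mean, so their distances from it are partly built in. The pattern is set by the 6 libraries alone and includes the high values of DT replicate 3.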

How the data were processed

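The authors trimmed reads with Trim Galore 0.5.0, mapped them to mm10 with HISAT2 2.1.0 using strand, removed ribosomal reads with bedtools 2.25.0 and quantified genes with StringTie 1.3.5. The authors deposited a signal per gene and library, CPM relative to library sizes scaled by normalization factors (0.9745 to 1.02), and TPM. Their 3 columns of p-value, q-value and fold change were not used. The values were whole multiples of a common unit per library in 100% of cases (within 0.05 of a whole number). This unit was taken as 1 read, and reads were recovered on that basis. Whether it is 1 sequenced read was not checked, and the read numbers, counting intervals and limits of 3 reads rest on it. The design had assumed plain CPM.

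For genes whose mean CPM reached 0.5, log2(CPM + 0.1) was compared two-sided in limma 3.58.1 (R 4.3.3), and the variance was allowed to depend on the level. Fold changes on this scale understate those of low genes. *Slc10a6*, under the filter, was given an exact permutation test. Counting intervals are exact 95% binomial intervals. Alternatives were pseudocounts of 0.5 and 1, no filter or one at 2 CPM, values in TPM or after quantile normalization, a fit lacking the variance trend, a replicate block, edgeR 4.0.16 and DESeq2 1.42.0 on recovered reads, and each library left out. The tests were tested on simulated data with the same small dispersion (spread beyond counting error) for all genes. This does not show how the tests do on low genes that vary more between libraries, such as *Ptx3*. The members, lists, markers and alternatives were chosen with earlier results of these data known, so no list was tested. Named are all members, the rest of the A2 panel, of each other list the genes past the threshold and, where fewer than 2 pass, up to 3 with the highest CPM after PBS, and the most abundant gene of a marker list. Some genes that this rule names are not reported here. Table names *Ppap2a*, *Ppap2b*, *Ppap2c* and *Hc* were matched to *Plpp1*, *Plpp3*, *Plpp2* and *C5* through RefSeq synonyms, and 27 gene names had become dates. Gene positions are from GENCODE M21, and sequences from RefSeq on GRCm38.p6.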

Additional observations from a re-analysis of the deposited data

How the results depend on the processing

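The log2 fold changes of the 9 tested members, *S100a10* and *Cd14* kept their direction in every alternative that could be fitted. A mean CPM of at least 2 left *Tgm1*, *B3gnt5*, *Clcf1*, *Sphk1* and *Cd14* out. *Tgm1* was the only member called higher, and the count was 0 with that filter, 0 without a variance trend (adjusted p = 0.0726 for *Tgm1*), 4 with DESeq2, and 0 to 1 with each library left out. Among all genes, 84 were higher and 24 lower. DESeq2 called 227 higher and 98 lower, the fit without a variance trend 35 and 11, and fits without 1 library 39 to 72 and 9 to 20. With the replicate block, 1 member was higher and 0 lower, and 79 genes were higher and 30 lower over all. The replicate numbers were not shown to pair the samples, since same-numbered libraries correlated at 0.115, 0.0105 and 0.118 after group means were removed. *Slc10a6* differed by 0.40 CPM between group means and by 0.294 to 0.502 CPM without 1 library. The median of the members was 0.56 to 0.82 over the alternatives. Depth limits *Tgm1*, *Slc10a6*, *Sphk1* and *Clcf1*, with under 60 reads per library.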
